A study of Oryza sativa with 6 samples.

Results

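Gibberellin and cytokinin are growth hormones of rice, and the genes described here make, sense, respond to or destroy them. A gene was included where its symbol or a synonym in the reference gene table was KAO, SLR1, GID1 or GID2, or was CIGR, GA20OX, GA2OX, GA3OX, CKX, LOG, LOGL or RR followed by digits. The rule matched 44 genes, none of them through GA2OX, GA3OX or LOG with digits. Of these, 33 had a probe set annotated to 1 gene, 8 in the gibberellin pathway and 25 in the cytokinin pathway, out of 17905 genes with such a probe set. The 11 without one, which were not analysed here, were CKX2, CKX9, LOGL4, LOGL8, RR7, RR10, RR11, RR13, RR25, RR27 and a second gene entry named GID2. One probe set stood for each gene, and 28 genes passed a filter on low mean signal that did not use the contrasts.

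The 6 Affymetrix arrays profiled leaf RNA of rice seedlings of the cultivar Zhonghua 11 at 2 weeks of age. The transgenic seedlings expressed antisense RNA to OsPDCD5, whose name stands for programmed cell death, and the nontransgenic Zhonghua 11 seedlings were the controls. Each genotype was sampled untreated, after 20 min and after 3 h in dishes of culture medium with 200 mM NaCl. Every group was a pool of 10 plants on 1 array, so there were no replicates. The promoter of the antisense construct and the number of transgenic lines are not given in the sources used here, and the OsPDCD5 signal was not analysed here. No group was moved to dishes without salt, so a change in NaCl includes the move and the time passed. Any other lasting difference between the seedling sets cannot be told apart from the transgene.

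Gibberellin is made from a diterpene precursor by a chain of oxidases that includes the kaurenoic acid oxidase KAO and the GA20OX enzymes. It binds the receptor GID1, and the F-box protein GID2 then sends the repressor SLR1, a DELLA protein, to degradation. Cytokinin is activated by enzymes of the LOG family and destroyed by the CKX oxidases. Histidine kinase receptors pass its signal along a phosphorelay to type-B response regulators, which are transcription factors, and these switch on the type-A response regulator genes, whose products damp the signal.

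Values below are MAS5 signals on a linear scale. Changes are differences of log2(signal + 16) ± SE from an additive model of genotype and stage fitted with limma to all 6 arrays. A gene was called where its Benjamini-Hochberg adjusted p over 28629 probe sets was under 0.05. The error in this model is how far each array departs from the additive fit, moderated by limma toward probe sets of similar intensity. With 2 residual degrees of freedom and a prior of 4.52, the prior weighs more than the gene's own departures. A p-value therefore sets the mean difference over the pairs of arrays against this moderated error, and it measures no spread between replicate samples. The comparisons of 20 min and 3 h with untreated leaves share the untreated arrays, and the comparison of 3 h with 20 min shares arrays with both. The median log2 signal lay between 4.94 and 5.28 per array. The leaf genes CAB2R and RBCS read 27103 to 42348 and 2218 to 5084, while RBCS1, of the same list, read 1.684 to 27.59. The root silicon transporter gene LSI1 read 537.4 to 1101 and LSI2 at most 1.526. The shoot meristem genes OSH1, OSH6, OSH43 and OSH71 read at most 37.14, while LOG, of the same list, read 6525 to 10971. In leaf tissue of this kind, fewer cells of a type and less RNA per cell cannot be told apart.

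At 20 min in NaCl, 1 of the 28 genes was called higher and 0 lower, where 0.789% of all probe sets were called higher and 0.157% lower. At 3 h, 2 were called higher and 2 lower, 7.14% each, against 3.44% and 2.58% of all probe sets. Between 20 min and 3 h, 3 were called higher and 5 lower, 10.7% and 17.9%, against 4.45% and 4.23%. In both comparisons 1 of the lower calls was the entry found through the name GID2, whose values cannot be assigned to that gene alone. Between genotypes, 1 was called higher and 3 lower in transgenic leaves, which is 3.57% and 10.7% of the genes, against 9.94% and 10.6% of all probe sets. The genotype counts were thus below or near the background of the whole array. By unadjusted p under 0.05 in limma, 9, 14, 12 and 13 of the 28 genes stood out in these 4 comparisons, or 32.1%, 50.0%, 42.9% and 46.4%, against 12.0%, 22.1%, 25.0% and 34.5% of all probe sets. The median change of the 28 genes was 0.00 at 20 min, -0.11 at 3 h, -0.11 from 20 min to 3 h and 0.12 between genotypes, beside 0.01, 0.01, -0.02 and 0.00 for all probe sets tested. The genes moved both ways, from -2.32 to 1.62 at 3 h.

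**Figure D1:**
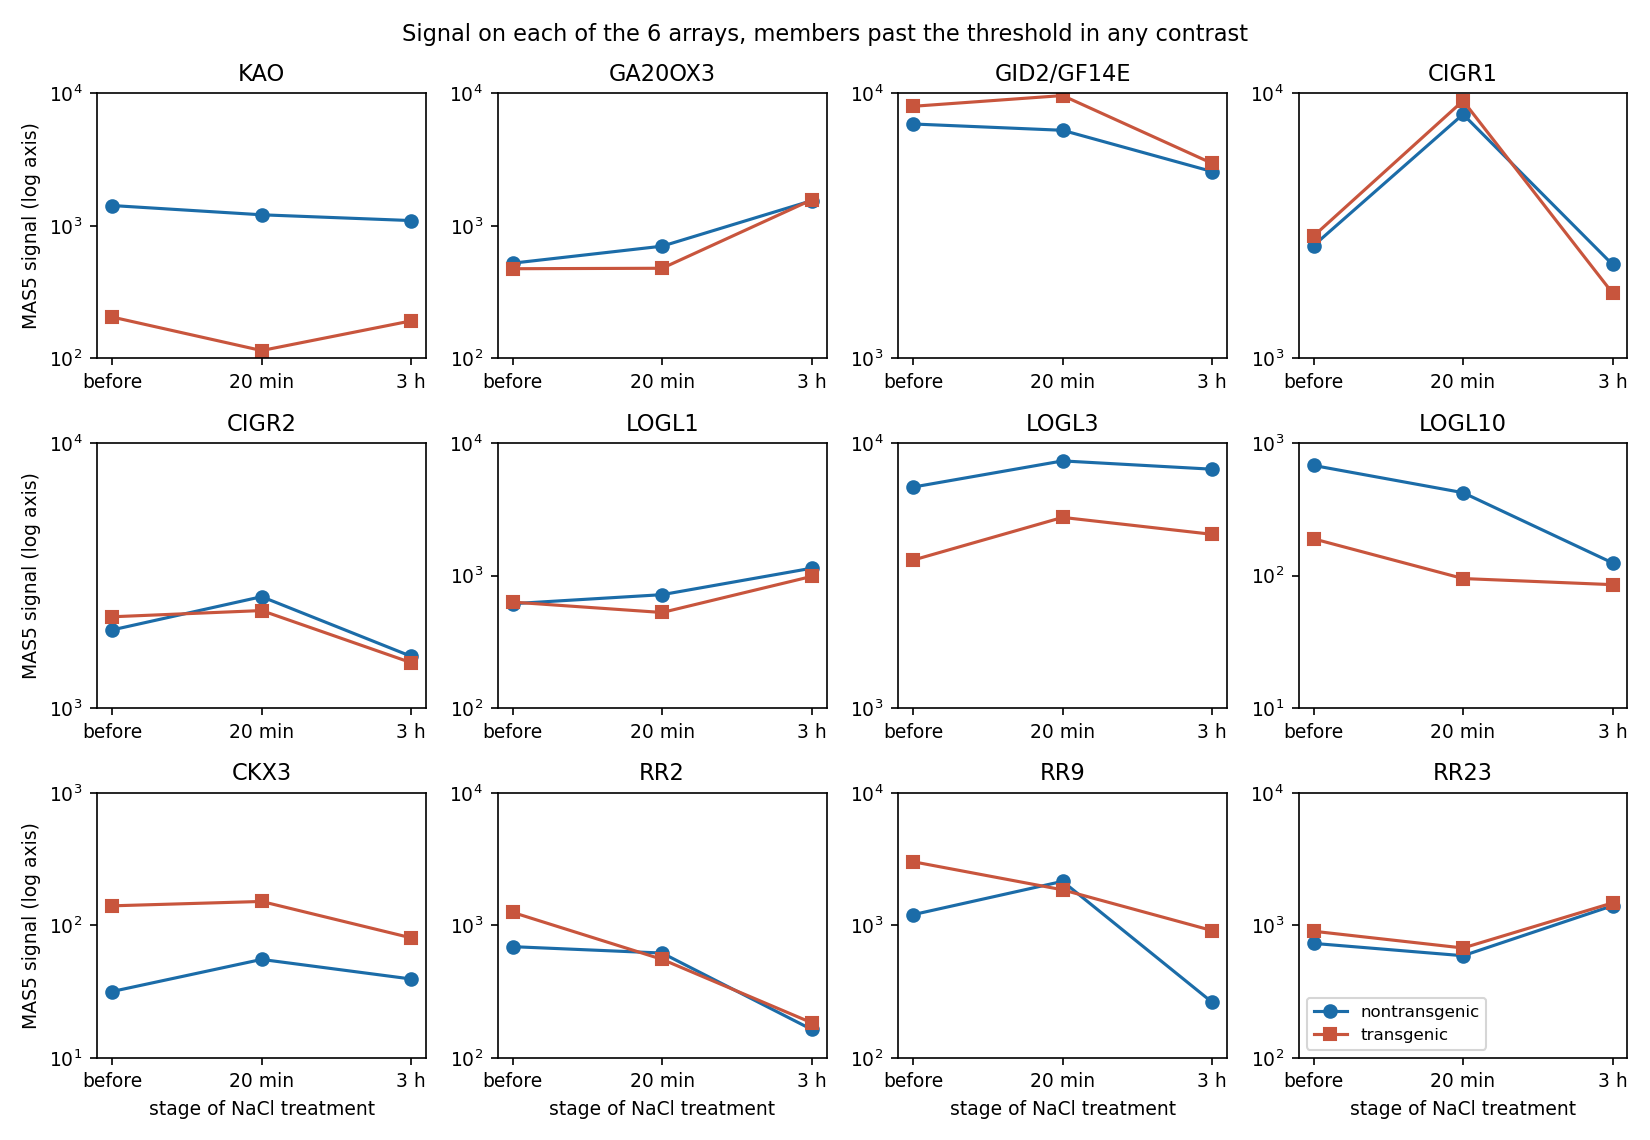
MAS5 signal (log axis, each panel with its own range) of the 12 genes called in at least 1 comparison, on each of the 6 arrays, with circles for nontransgenic and squares for transgenic leaves. KAO and LOGL3 are lower in transgenic leaves at every stage, CIGR1 peaks at 20 min in both genotypes, and RR2 is lowest at 3 h in both.

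KAO encodes the cytochrome P450 that oxidises kaurenoic acid on the way to gibberellin, and it had the largest genotype difference of the 28 genes. Its signal in nontransgenic leaves was 1426 untreated, 1214 at 20 min and 1098 at 3 h. In transgenic leaves it was 205.2, 114.6 and 191.9. Every transgenic array lay far below every nontransgenic one. The difference was -2.79 ± 0.19 (adjusted p = 0.000316), and it was -2.70, -3.24 and -2.42 at the 3 stages. The call held without each array in turn and under each of 9 other settings. Salt changes of KAO were smaller, at -0.49 ± 0.23 at 20 min (adjusted p = 0.472) and -0.23 ± 0.23 at 3 h (adjusted p = 0.623).

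GA20OX3 encodes a gibberellin 20-oxidase, which carries out late oxidation steps of the pathway, and it rose at 3 h in both genotypes. Its signal was 523.5 untreated, 703.4 at 20 min and 1551 at 3 h in nontransgenic leaves. The transgenic arrays read 475.4, 479.1 and 1573. Both 3 h arrays lay above all 4 earlier ones. The rise over untreated leaves was 1.62 ± 0.18 (adjusted p = 0.00748), 1.54 in nontransgenic and 1.69 in transgenic leaves. After 20 min the rise was 1.40 ± 0.18 (adjusted p = 0.00872). At 20 min the change was 0.21 ± 0.18 (adjusted p = 0.707). Both calls at 3 h held without each array in turn.

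GA20OX2, the 20-oxidase gene of the semi-dwarf locus sd1, was not called in any comparison. Its signal in nontransgenic leaves was 169.2 untreated, 99.23 at 20 min and 230.2 at 3 h. In transgenic leaves the values were 167.8, 207.8 and 539.9. The transgenic 3 h array was the highest, and the genotypes lay close together before treatment. From 20 min to 3 h the change was 1.20 ± 0.32, at 1.10 and 1.31 in the nontransgenic and transgenic pairs, without passing the threshold (adjusted p = 0.0724). That comparison passed without the untreated array of either genotype (1.20 in both, adjusted p = 0.0355 and 0.0370), and without the transgenic 3 h array it was 0.85 (adjusted p = 0.300). The genotype difference was 0.71 ± 0.26 (adjusted p = 0.111), made up of -0.01 untreated, 0.96 at 20 min and 1.18 at 3 h. Without the untreated array of either genotype it was 1.07, a fit that rests on the 20 min and 3 h pairs. Without the 3 h array of either genotype it was 0.47, resting on the untreated and 20 min pairs.

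The receptor gene GID1 and the repressor gene SLR1 were not called in any comparison. GID1 read 2333, 3489 and 2764 in nontransgenic leaves at the 3 stages, and 2417, 2006 and 2222 in transgenic leaves. The genotypes overlapped, with the nontransgenic 20 min array the highest. Its 95% confidence intervals were -0.33 to 0.64 at 20 min, -0.43 to 0.55 at 3 h and -0.75 to 0.05 between genotypes. SLR1 read 759.0, 849.7 and 663.7 in nontransgenic and 747.0, 672.8 and 559.5 in transgenic leaves. The lowest value of each genotype was at 3 h. Its intervals were -0.37 to 0.39 at 20 min, -0.68 to 0.08 at 3 h and -0.51 to 0.11 between genotypes.

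The probe set found through the name GID2 belongs to a gene entry that also carries the name GF14E, a 14-3-3 protein gene, and that overlaps the second entry named GID2. Its values cannot be assigned to one of these genes and are given as GID2/GF14E. The signal was 7672, 7263 and 5075 in nontransgenic leaves untreated, at 20 min and at 3 h. It was 8947, 9823 and 5450 in transgenic leaves. Both 3 h arrays lay below the 4 earlier ones. The 3 h level fell by 0.65 ± 0.13 against untreated leaves (adjusted p = 0.0366) and by 0.68 ± 0.13 against 20 min (adjusted p = 0.0260). The first call ended without the untreated array of nontransgenic or transgenic leaves (adjusted p = 0.162 and 0.168), either 20 min array (0.0526 for both) or the transgenic 3 h array (-0.54, 0.120). The second ended without the nontransgenic or transgenic 20 min array (-0.82 and -0.55, adjusted p = 0.0740 and 0.262) or the transgenic 3 h array (-0.57, 0.0905).

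CIGR1 and CIGR2 encode GRAS-domain proteins that were named for their induction by chitin and gibberellin in rice cells. CIGR1 had a short peak. Its signal was 2665 untreated, 8346 at 20 min and 2262 at 3 h in nontransgenic leaves. The transgenic values were 2896, 9388 and 1764. Both 20 min arrays lay above the other 4, and both 3 h arrays lay below the untreated ones. The rise at 20 min was 1.67 ± 0.16 (adjusted p = 0.0130), at 1.64 in nontransgenic and 1.69 in transgenic leaves. This call ended without the untreated array of nontransgenic leaves (1.56, adjusted p = 0.0928) or of transgenic leaves (1.77, adjusted p = 0.0745). From 20 min to 3 h CIGR1 fell by 2.14 ± 0.16 (adjusted p = 0.00240), a call that held without each array in turn. The 3 h level differed from the untreated one by -0.47 ± 0.16 (adjusted p = 0.152), by -0.72 without the nontransgenic 3 h array (adjusted p = 0.0333) and by -0.22 without the transgenic 3 h array (adjusted p = 0.473).

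CIGR2 had a smaller range over the arrays. Its signal was 1973, 2634 and 1569 in nontransgenic leaves untreated, at 20 min and at 3 h. In transgenic leaves it was 2212, 2335 and 1485. The 20 min array was the highest and the 3 h array the lowest in each genotype. The change at 20 min was 0.25 ± 0.14, at 0.41 in nontransgenic and 0.08 in transgenic leaves, and was not called (adjusted p = 0.553). CIGR2 fell from 20 min to 3 h by 0.69 ± 0.14 (adjusted p = 0.0316). That call ended without the nontransgenic 20 min array (-0.59, adjusted p = 0.217), the nontransgenic 3 h array (-0.73, 0.0505), the transgenic 20 min array (-0.80, 0.118) or the transgenic 3 h array (-0.66, 0.101). Neither CIGR gene differed between genotypes past the threshold (-0.02 ± 0.13 and -0.03 ± 0.11, adjusted p = 0.925 and 0.885).

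**Figure D2:**
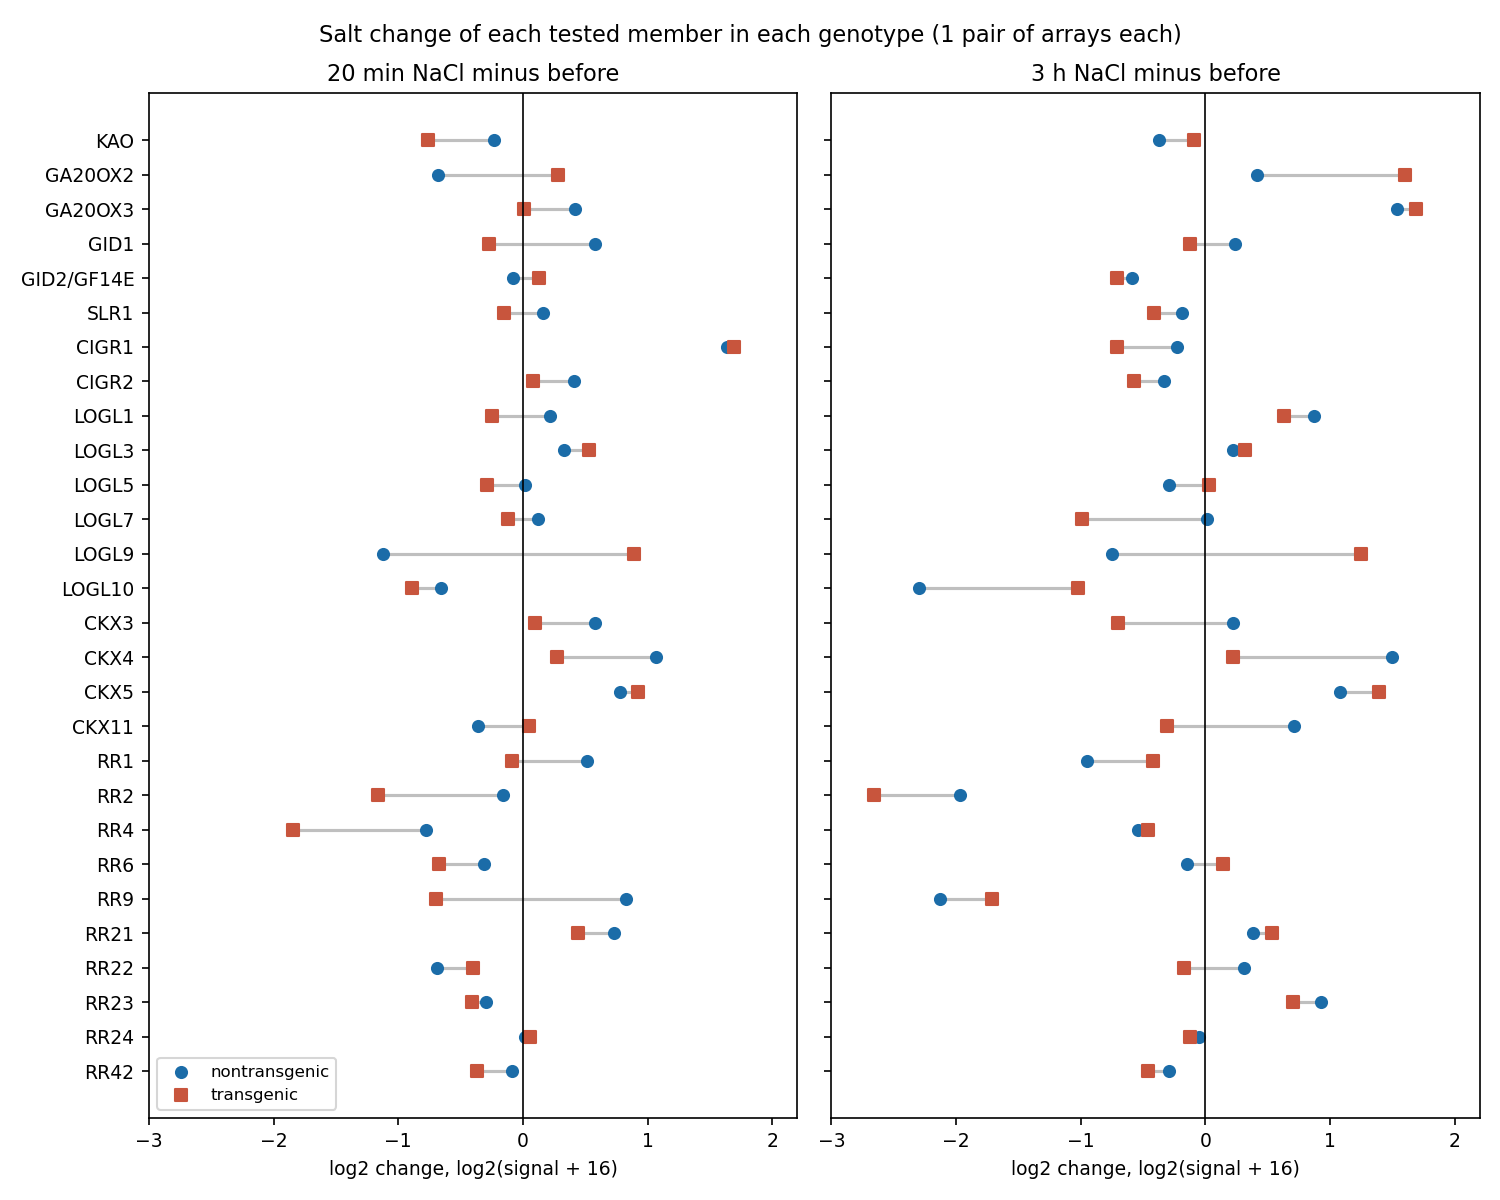
Change in log2(signal + 16) of each of the 28 tested genes from untreated leaves to 20 min (left) and 3 h (right) in NaCl, with a circle for the nontransgenic pair of arrays and a square for the transgenic pair, joined by a grey line. CIGR1 at 20 min and GA20OX3 at 3 h lie far to the right with their pairs close together, RR2 and RR9 lie far to the left at 3 h, and the LOGL9 pairs lie on opposite sides of 0.

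Each of the 6 tested LOGL genes encodes a LOG-like enzyme, of the family that releases the active cytokinin base from its nucleotide. LOGL3 (LOC4331344) was lower in transgenic leaves at every stage. Its signal was 6830, 8575 and 7979 in nontransgenic leaves and 3621, 5248 and 4530 in transgenic leaves. No transgenic array reached the lowest nontransgenic one. The difference was -0.81 ± 0.10 (adjusted p = 0.00255), at -0.91, -0.71 and -0.81 by stage, and the call held without each array in turn. Its salt changes were 0.43 ± 0.12 at 20 min (adjusted p = 0.203) and 0.27 ± 0.12 at 3 h (adjusted p = 0.237).

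LOGL10 was lower in transgenic leaves and also low at 3 h. Its signal in nontransgenic leaves was 679.4 untreated, 423.2 at 20 min and 124.9 at 3 h. The transgenic arrays read 189.7, 95.13 and 85.53. The genotypes overlapped, since the untreated transgenic array lay above the nontransgenic 3 h array. The genotype difference was -1.40 ± 0.31 (adjusted p = 0.0235), at -1.76, -1.98 and -0.47 by stage. The call ended without the untreated array of nontransgenic or transgenic leaves (-1.23 for both, adjusted p = 0.114 and 0.107), or without the 20 min array of either (-1.12 for both, adjusted p = 0.0848 and 0.0741). The 3 h change was -1.66 ± 0.38, at -2.30 in nontransgenic and -1.02 in transgenic leaves, and missed the threshold (adjusted p = 0.0581). That change passed without the nontransgenic or transgenic 20 min array (-1.66, adjusted p = 0.0337 and 0.0293) or the transgenic 3 h array (-2.36, 0.0128). Without the nontransgenic 3 h array it was -0.96 (adjusted p = 0.102), and without the untreated nontransgenic or transgenic array -1.40 and -1.93 (adjusted p = 0.263 and 0.164).

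LOGL1, read by a probe set marked as open to cross-hybridisation, was called from 20 min to 3 h. Its signal was 614.3, 718.7 and 1138 in nontransgenic leaves and 631.6, 527.2 and 986.6 in transgenic leaves. Both 3 h arrays lay above the other 4. LOGL1 rose by 0.77 ± 0.17 after 20 min (adjusted p = 0.0436), and its 3 h change against untreated leaves was 0.75 ± 0.17 (adjusted p = 0.0567). The call ended without the nontransgenic 20 min array (0.94, adjusted p = 0.0817), the nontransgenic 3 h array (0.77, 0.0920), the transgenic untreated array (0.77, 0.0507), the transgenic 20 min array (0.59, 0.310) or the transgenic 3 h array (0.77, 0.129).

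LOGL5, LOGL7 and LOGL9 were not called. LOGL9 read 4943, 2260 and 2939 in nontransgenic leaves and 1457, 2719 and 3494 in transgenic leaves. The untreated arrays thus held its highest and its lowest value, and its pairs moved opposite ways in salt. Genotype differences of LOGL5 were negative at all 3 stages (-0.42, -0.73 and -0.11), with -0.42 ± 0.14 overall (adjusted p = 0.0786). LOGL7 spanned 1912 to 2081 without the transgene and 1586 to 3155 with it. Of the 6 LOGL genes, 2 were called lower and 0 higher between genotypes, against 10.6% and 9.94% of all probe sets. Their median difference was -0.42, with 5 of 6 negative, where 50.4% of all probe sets were positive. By stage 4, 4 and 5 of the 6 were negative. LOGL9 was among the negative ones at -0.41 ± 0.38, through its untreated pair alone (-1.75, 0.26 and 0.25 by stage).

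The CKX genes encode cytokinin oxidases, which break cytokinin down. CKX3 was higher in transgenic leaves. Its signal was 31.68, 55.34 and 39.38 in nontransgenic and 140.5, 151.6 and 80.55 in transgenic leaves. Every transgenic array lay above every nontransgenic one. The difference was 1.25 ± 0.28 (adjusted p = 0.0244), at 1.71, 1.23 and 0.80 by stage, and at these low signals its size depends on the offset of 16. The call ended without the untreated array of nontransgenic or transgenic leaves (1.02 for both, adjusted p = 0.111 and 0.136), or without the 20 min array of either (1.26 for both, adjusted p = 0.0770 and 0.0930).

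CKX5 read 18.65, 43.45 and 57.18 in nontransgenic leaves and 28.93, 69.14 and 101.8 in transgenic leaves. Within each genotype the untreated array was the lowest and the 3 h array the highest. Its 3 h change was 1.23 ± 0.34, at 1.08 and 1.39 in the pairs, and did not pass the threshold (adjusted p = 0.0911). CKX4 read 289.1, 623.1 and 847.5 in nontransgenic and 559.8, 680.3 and 655.2 in transgenic leaves. The lowest array was the untreated nontransgenic one. Its 3 h change was 0.86 ± 0.30 (adjusted p = 0.155), at 1.50 and 0.22 in the pairs. CKX11 read 2850, 2209 and 4672 in nontransgenic and 5929, 6124 and 4776 in transgenic leaves. Its genotype difference was 0.85 ± 0.25 (adjusted p = 0.0598), with 1.05, 1.46 and 0.03 by stage. All 4 tested CKX genes had a positive genotype difference (median 0.69), as had 50.4% of all probe sets. CKX4 was at 0.23 ± 0.24, with 0.92, 0.12 and -0.36 by stage. By stage 4, 4 and 3 of the 4 genes were positive. When the arrays were scaled to the poly-A control probe sets, 3 of the 4 genotype differences were positive with a median of 0.26. The median of all probe sets then shifted to -0.46.

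**Figure D3:**
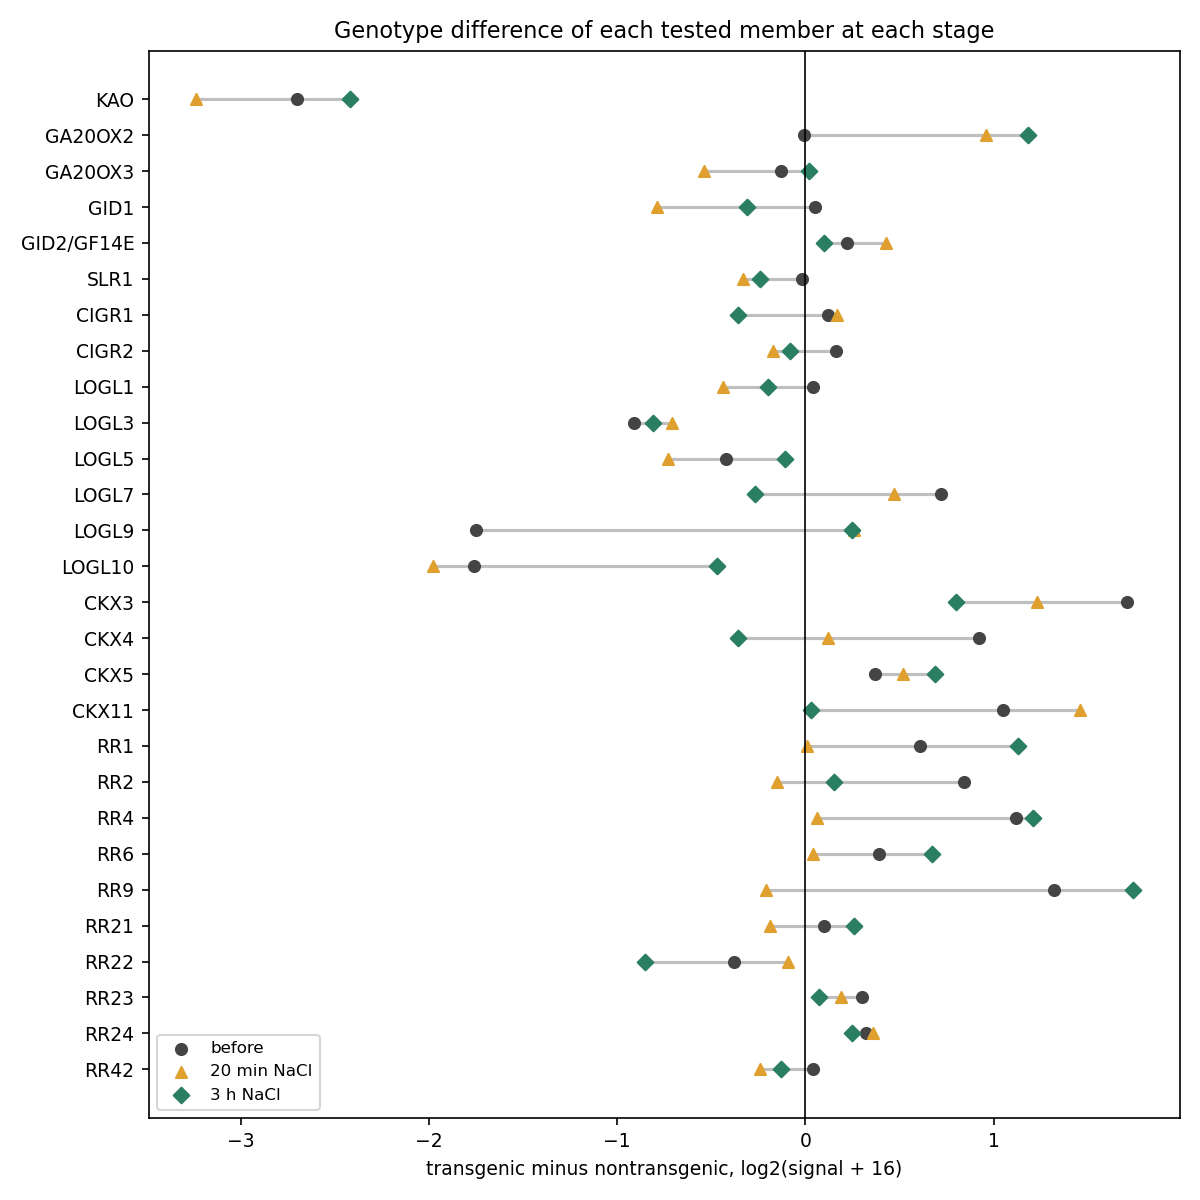
Transgenic minus nontransgenic difference in log2(signal + 16) of each of the 28 tested genes, with a circle for untreated leaves, a triangle for 20 min and a diamond for 3 h in NaCl, and a grey line over their range. KAO and LOGL3 keep all 3 symbols well left of 0 and CKX3 keeps them right of it, while LOGL9 and RR9 have symbols on both sides.

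The type-A response regulators, which are induced by cytokinin and dampen its signal, were represented by RR1, RR2, RR4, RR6 and RR9. RR2 (LOC4329677) fell at 3 h. Its signal was 690.9 untreated, 618.2 at 20 min and 164.0 at 3 h in nontransgenic leaves. In transgenic leaves the values were 1254, 554.1 and 184.2. Both 3 h arrays lay below the other 4, and the transgenic value was already lower at 20 min than before treatment. RR2 fell by 2.32 ± 0.26 at 3 h (adjusted p = 0.00734), with -1.97 and -2.66 in the pairs, and this call held without each array in turn. After 20 min it fell by 1.66 ± 0.26 (adjusted p = 0.0149). The latter call ended without the nontransgenic 20 min array (-1.34, adjusted p = 0.0575) or the transgenic 3 h array (-1.57, adjusted p = 0.0533).

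RR9 (LOC4349747) has a near-identical paralog, RR10, that has no probe set of its own here, so its values are uncertain as to the gene. Its signal was 1205, 2151 and 263.2 in nontransgenic and 3024, 1856 and 914.2 in transgenic leaves. Both 3 h arrays were the lowest, and the genotypes differed in which earlier array was the highest. RR9 fell from 20 min to 3 h by 1.98 ± 0.42 (adjusted p = 0.0379), at -2.96 in nontransgenic and -1.01 in transgenic leaves. Without the nontransgenic 3 h array the call ended (-1.39, adjusted p = 0.0938), and without the nontransgenic 20 min array the value was -1.11. The change at 3 h against untreated leaves was -1.92 ± 0.42, with -2.13 and -1.71 in the pairs, and just missed the threshold (adjusted p = 0.0514). It passed without the nontransgenic or transgenic 20 min array (-1.92 for both, adjusted p = 0.00162 and 0.00183) or the transgenic 3 h array (-2.51, 0.0352). Without the nontransgenic 3 h array it was -1.33 (adjusted p = 0.122), and without the untreated nontransgenic or transgenic array -2.20 and -1.64 (adjusted p = 0.125 and 0.257).

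RR4 read 513.5, 293.0 and 346.9 in nontransgenic and 1136, 306.6 and 822.1 in transgenic leaves. The untreated array was the highest and the 20 min array the lowest of each genotype. Its 20 min change was -1.31 ± 0.30, at -0.78 and -1.84 in the pairs, and was not called (adjusted p = 0.130). RR6 read 1027, 822.5 and 925.9 in nontransgenic and 1352, 846.9 and 1487 in transgenic leaves, also lowest at 20 min in both. RR1 was at low signal, between 17.33 and 81.70. At 3 h all 5 type-A genes had a negative change (median -0.68, from -2.32 to -0.01), of which 1 was called lower, against 2.58% of all probe sets. The smallest, RR6 at -0.01 ± 0.18, was 0.14 in the transgenic pair, and 50.7% of all probe sets had a positive change. Under each of 4 other scalings of the arrays these 5 signs were the same, which says little. Those scalings moved the median of all probe sets down, from 0.01 to between -0.06 and -0.03.

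Between genotypes, none of the 5 type-A genes was called, while 3 had an unadjusted p under 0.05 in limma, as had 34.5% of all probe sets. All 5 differences were positive (median 0.58, from 0.28 to 0.95). The difference was not even over the stages. Untreated, it was positive for all 5, from 0.39 in RR6 to 1.32 in RR9 (median 0.84). At 20 min it lay between -0.21 and 0.06 (median 0.01), and at 3 h between 0.15 and 1.74 (median 1.13). The medians of all probe sets at these stages were 0.03, -0.01 and -0.01. The RR9 difference was 0.95 ± 0.34 with all arrays (adjusted p = 0.104). Without the 20 min array of nontransgenic or transgenic leaves it was 1.53. Either fit rests on the untreated and 3 h pairs (1.32 and 1.74) and drops the 20 min pair (-0.21), so it is no check of the stage pattern. Without the 3 h array of either genotype the RR9 difference was 0.55, resting on the untreated and 20 min pairs. Scaling to the poly-A controls left 3 of 5 genotype differences positive, with RR2 at -0.20, and by stage 4, 0 and 4 of 5. The stage pattern was chosen after the values were seen, rests on 1 pair of arrays a stage and was not tested.

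**Figure D4:**
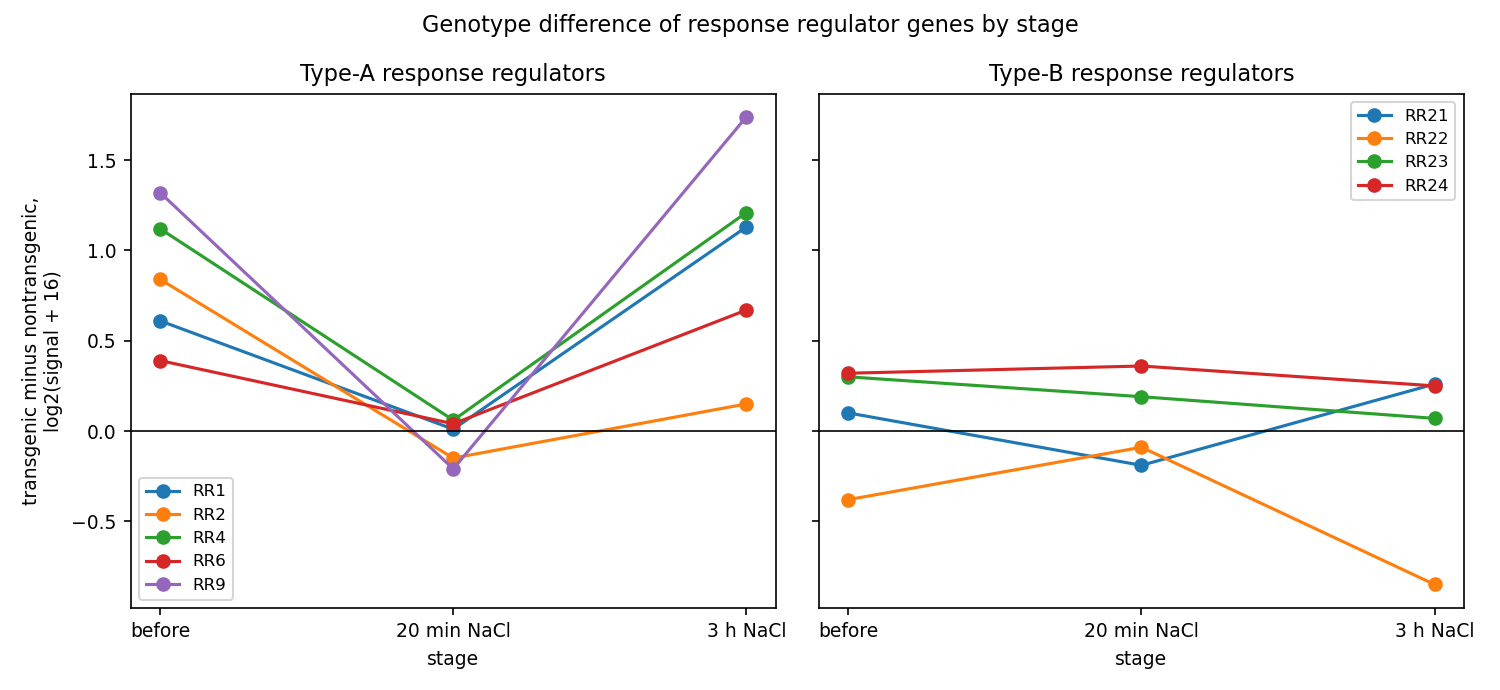
Transgenic minus nontransgenic difference in log2(signal + 16) at each stage, 1 line per gene, for 5 type-A (left) and 4 type-B (right) response regulator genes. The type-A lines are above 0 untreated and at 3 h and meet near 0 at 20 min, between -0.21 and 0.06, while the type-B lines lie between -0.85 and 0.36 over the stages.

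Of the type-B regulators, the transcription factors that carry the cytokinin response, RR23 (LOC4331008) was called at 3 h. Its signal was 731.3, 590.1 and 1408 in nontransgenic and 903.2, 675.0 and 1478 in transgenic leaves. Both 3 h arrays were the highest and both 20 min arrays the lowest. RR23 rose by 0.82 ± 0.14 over untreated leaves (adjusted p = 0.0282) and by 1.17 ± 0.14 over 20 min (adjusted p = 0.00763). The second call held without each array in turn. The first ended without the untreated array of nontransgenic (0.73, adjusted p = 0.159) or transgenic leaves (0.90, 0.125), or the 3 h array of nontransgenic (0.73, 0.0717) or transgenic leaves (0.90, 0.0622).

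RR21, RR22 and RR24, also of type B, were not called. RR21 read 4660, 7761 and 6053 in nontransgenic and 5008, 6778 and 7252 in transgenic leaves, lowest before treatment in both. Its 20 min change was 0.58 ± 0.14 (adjusted p = 0.155). RR22 read 530.0 to 1145 and RR24 3093 to 4160 over the 6 arrays. RR24 was higher in transgenic leaves at each stage, with a difference of 0.31 ± 0.09 that missed the threshold (adjusted p = 0.0634). RR22 was lower in transgenic leaves at each stage (-0.38, -0.09 and -0.85), with a difference of -0.44 ± 0.17 (adjusted p = 0.125). RR42 read 1510 to 2086, with changes between -0.37 and -0.11 in the 4 comparisons. From 20 min to 3 h RR2 fell and RR23 rose in both genotypes, but their classes did not divide this way. Of the 5 type-A genes, 2 changes were positive, RR4 at 0.80 and RR6 at 0.48, and 3 negative. Of the 4 tested type-B genes, 2 changes were positive and 2 negative.

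The 5 genes below the filter were at low signal and were not tested. CKX1 read 1 to 19.68, RR5 at most 4.249, RR33 at most 3.172 and RR41 at most 6.091. LOGL6 read 5.083 to 19.19 on 5 arrays and 75.28 on the transgenic 3 h array. GID1, LOGL7 and CKX11 had a second probe set, with signals of at most 20.18, 153.4 and 74.75, and no comparison of the second LOGL7 and CKX11 probe sets was called (adjusted p from 0.304 to 0.960).

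Further genes of the pathways were listed by name with earlier results of these data known. Of 10 other genes tested from the gibberellin list, 0 were called in the 3 salt comparisons. By unadjusted p under 0.05 in limma 0, 1 and 1 stood out, where 12.0%, 22.1% and 25.0% of all probe sets did. KOL4 and KOL5 were listed by family name, and their part in gibberellin synthesis was not tested. Between genotypes 1 of the 10 was called higher and 1, KOL5, lower. That is 10.0% each, close to the 9.94% and 10.6% of all probe sets. KOL4, of the kaurene oxidase-like family, was at least 2-fold lower in both pairs at 20 min without being called (-1.52 ± 0.76, adjusted p = 0.508). It read 582.9, 167.0 and 1152 in nontransgenic and 473.2, 179.9 and 97.76 in transgenic leaves, so that the 3 h arrays held its highest and its lowest value. KOL5, of the same family, read 273.9, 68.93 and 253.6 in nontransgenic and 30.30, 19.76 and 21.58 in transgenic leaves. Every transgenic array lay below every nontransgenic one. The difference was -2.25 ± 0.37 (adjusted p = 0.00837), and with an offset of 64 in place of 16 it was -1.47. The call ended without the untreated nontransgenic array (-2.05, adjusted p = 0.0513). CYP701A6, the kaurene oxidase gene that acts upstream of KAO, was read by a probe set marked as open to cross-hybridisation. Its gene entry also carries the names of a separate KOL3 entry without a probe set, so the values are uncertain as to the gene. The probe set gave 340.0, 370.6 and 262.1 in nontransgenic and 522.8, 489.9 and 543.2 in transgenic leaves. Every transgenic array lay above every nontransgenic one. The difference was 0.66 ± 0.17 (adjusted p = 0.0374). This call ended without each of the 6 arrays in turn, with values from 0.49 to 0.80 and adjusted p from 0.0535 to 0.122, and held in 4 of 9 other settings, with values down to 0.18 under poly-A scaling (adjusted p = 0.522).

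Of 7 other cytokinin genes tested, LOG, the receptor genes HK3, HK4 and HK5, and the phosphotransfer genes AHP1, AHP2 and PHP5, 0 were called in the salt comparisons, with 1, 1 and 4 at an unadjusted p under 0.05 in limma, against the same 12.0%, 22.1% and 25.0%. Between genotypes 1 of the 7 was called higher, 14.3% against 9.94% of all probe sets. PHP5, which encodes a pseudo-phosphotransfer protein, was the gene called. Its signal was 301.4, 399.9 and 300.4 in nontransgenic and 1782, 2303 and 1281 in transgenic leaves. Every transgenic array lay far above every nontransgenic one. The difference was 2.34 ± 0.14 (adjusted p = 0.000228), and the call held without each array in turn and in each of 9 other settings. Beside these genotype differences, the summed leaf markers spanned 29611 to 43244 on nontransgenic arrays and 42935 to 47454 on transgenic arrays. The root marker sum was 538.5 to 793.4 and 744.7 to 1102.0, and the meristem marker sum, nearly all of it LOG, 6546.0 to 8508.2 and 7228.0 to 11021.7. The part of these marker levels in the results was not tested.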

How the data were processed

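The authors deposited 1 log2 value a probe set and array, computed with MAS5 (submitters' processing notes), whose version and scaling target are not given in the sources used here. On the linear scale the lowest signal was 1 and the trimmed mean was 497.5 to 497.7 on every array, so a common scaling had been applied. Tests used log2(signal + 16). The platform annotation gave 1 gene to 22436 of the 57258 rice probe sets, several to 95 and none to 34727. All 22436 identifiers were found in the reference gene table. The probe set with the highest mean stood for each gene, those marked as cross-hybridising last. Probe sets with a mean under the median (log2 5.53) were left out. lmFit and eBayes with an intensity trend (limma 3.58.1, R 4.3.3) gave 2 residual degrees of freedom and a prior of 4.52, with a median residual SD of 0.20. The functions were tested on simulated data. The number of arrays, 6, limits the precision. Members called, or changed at least 2-fold one way in every pair of a comparison, are named with all signals, and other pathway genes where called. Members and lists were chosen with earlier results of these data known. Alternatives changed the offset, filter, scaling, trend, probe set rule and arrays. Promoter sequences and motifs were not analysed here.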

Additional observations from a re-analysis of the deposited data

Results flagged for a closer look

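Among the 28 hormone genes and the 17 other pathway genes tested, changes from untreated leaves to 20 min and to 3 h were compared between genotypes. Those of 4 genes ran opposite ways by at least 0.5 on the log2 scale in each genotype. Changes from 20 min to 3 h were not in this count. There CPS1 (-1.09 in nontransgenic and 0.73 in transgenic leaves) and KOL4 (2.67 and -0.78) ran opposite ways. LOGL9 changed by -1.12 in nontransgenic and 0.89 in transgenic leaves at 20 min, a difference of 2.02. At 3 h its changes were -0.75 and 1.25, a difference of 2.00. Both LOGL9 values share the untreated arrays, which read 4943 in nontransgenic and 1457 in transgenic leaves. RR9 changed by 0.83 in nontransgenic and -0.70 in transgenic leaves at 20 min, a difference of -1.53. SLRL1, a gene named for its likeness to SLR1, changed by -1.23 and 0.75 at 20 min, a difference of 1.98, with signals between 11.81 and 82.46 that make its size depend on the offset. KOL4 changed by 0.96 and -2.10 at 3 h, a difference of -3.07. Each value rests on 1 pair of arrays per genotype, and the difference was not tested.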

How the results depend on the processing

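Of 20 calls on the hormone genes and the 3 other pathway genes, 0 reversed in any setting, 13 held in all 8 settings other than the fit without the intensity trend, 4 held in all 9, and 8 held without each array in turn. At 20 min the 1 call became 0 without the trend (5 at an unadjusted p under 0.05 in limma), 2 (1 higher, 1 lower) with poly-A scaling, and 0 to 2 with an array left out. At 3 h the 4 calls (2 higher, 2 lower) became 0 without the trend (9 unadjusted), 7 (4 higher, 3 lower) with poly-A scaling, 6 (2 higher, 4 lower) with equal 75th percentiles or spike-in scaling, and 2 to 5 with an array left out. From 20 min to 3 h the 8 calls (3 higher, 5 lower) became 4 with no filter, 0 without the trend (10 unadjusted), 8 (5 higher, 3 lower) with poly-A scaling, and 5 to 9 with an array left out. Between genotypes the 4 calls (1 higher, 3 lower) became 7 (4 higher, 3 lower) with equal 75th percentiles, 14 (1 higher, 13 lower) with poly-A scaling, 5 (2 higher, 3 lower) with quantile normalization, and 3 to 7 with an array left out. Poly-A scaling, which rests on 24 control probe sets and was chosen after seeing the data, moved the median genotype difference of all probe sets to -0.46 and the 20 min median to -0.11. The cause was not tested. The additive model already pairs arrays by genotype and by stage. No paired analysis was possible beyond it, because each group was 1 array with no replicate number to block on. Leaving out either array of a stage drops that pair from the genotype difference, so both fits gave the same value. A salt change likewise kept its value without an array of the stage outside its comparison. The 6 fits with an array left out are therefore not 6 separate checks. Changes of genes near signal 16, such as CKX3, CKX5, RR1 and KOL5, depend on the offset.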
